A study of Mus musculus with 18 samples.

Results

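Embryonic day 13.5 (E13.5) was compared with embryonic day 11.5 (E11.5) in cells sorted from the ventricles of the mouse embryonic heart, a change over the first 2 days of a series that runs daily until E16.5. The comparison took the 3 arrays labelled E13.5 and the 3 arrays labelled E11.5, 6 of the 18 arrays of the series. All groups carry the same knock-in, Wt1GFPKI, in which green fluorescent protein (GFP) is made from the Wt1 locus. After enzymatic dispersal of the ventricles, cells with GFP were collected by fluorescence-activated sorting and then lysed, and their total RNA was labelled and hybridized to Illumina bead arrays. The stages differ only in age as far as the labels go. Strain, number of embryos per sample and copies of the knock-in are not given in the sources used here, no treatment is named, and no GFP-negative cells are part of the data used here. GFP from this locus reports Wt1 activity and not one cell type, which limits the sorted cells as a model of any single lineage. The series' title calls them cardiomyocytes.

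Between these days the ventricular wall of the mouse thickens and its inner meshwork of trabeculae starts to compact. The epicardium, the outer cell layer in which Wt1 is best known, covers the heart and releases mesenchymal cells that settle between the muscle cells and become fibroblasts and mural cells. Circulating blood changes too, since primitive red cells of the yolk sac are joined by definitive cells of the fetal liver, and each wave uses its own globin genes.

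Levels are log2 intensities after background correction, on a scale where the limit of background lay at 5.02. Of 45281 probes, 25337 were above that limit on enough arrays to be tested, and they stand for 12856 named genes, each taken as its brightest probe. A gene was called changed when its adjusted p in limma's moderated test of E13.5 against E11.5 was under 0.05 (Benjamini-Hochberg, all 25337 probes). Of the genes tested, 873 were higher at E13.5 (6.79%) and 837 lower (6.51%), and 119 of the higher and 96 of the lower ones had changed by 2-fold or more (0.926% and 0.747% of the genes tested). Every count of list members called below is to be read against the shares of 6.79% higher and 6.51% lower. The median change over all genes was -0.002 on the log2 scale, and 6402 genes were higher at E13.5 by any amount. The 3 and 3 arrays did not overlap for 3828 genes (29.8%). Nothing in the labels says that the 3 samples of a stage came from separate litters, so every p-value measures only the spread between these samples. Unless another value stands beside it, each gene called below kept its call in every one of the 15 alternative settings in which it was tested. The settings left out single arrays or changed a processing step, and Ppbp and Hapln1 were tested in 14, since a stricter filter on dim probes removed them.

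**Figure D1:**
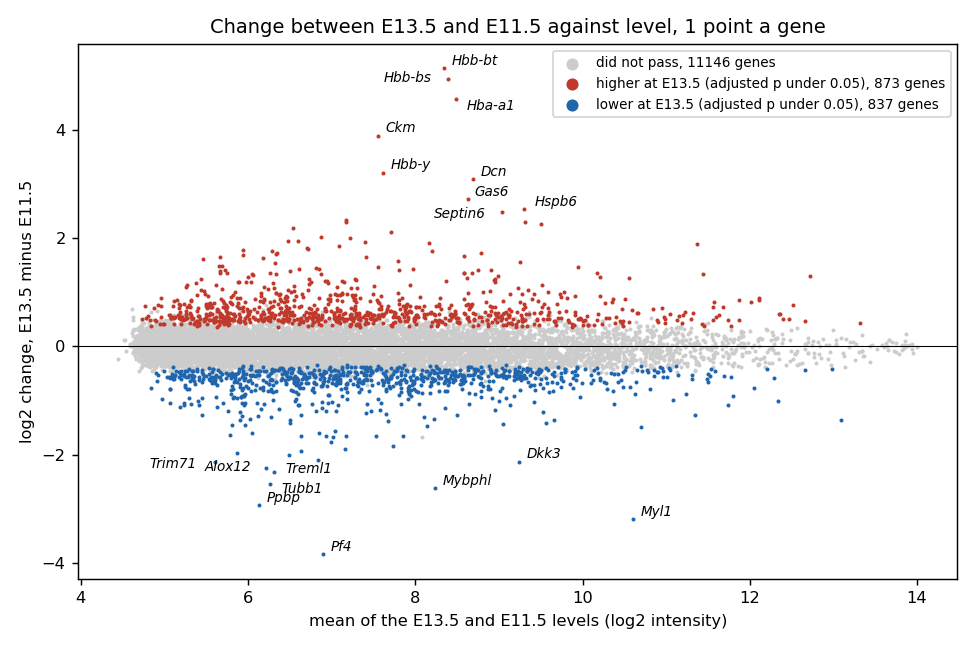
The log2 change of each gene (E13.5 minus E11.5, vertical axis) is plotted against the mean of its E13.5 and E11.5 levels (log2 intensity, horizontal axis), with the 873 genes that were higher in red, the 837 that were lower in blue and the others in grey. Globin genes and Ckm lie at the top, and Pf4, Myl1 and Ppbp at the bottom.

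The arrays of E13.5 correlated with one another over the tested probes with r between 0.9837 and 0.9884 and those of E11.5 with r between 0.9913 and 0.992, while arrays of different stages correlated with r between 0.9716 and 0.981. E13.5 replicate 1 differed from the other E13.5 arrays. Its closest array was E14.5 replicate 1 (r = 0.9903). The second principal component held 12% of the variance over the 18 arrays. On it E13.5 replicate 1 scored -8.45, against -32.5 and -34.3 for E13.5 replicates 2 and 3. Arrays of the other stages scored between -5.84 and 16.9, so on this component replicates 2 and 3 lay apart from all others. Leaving out replicate 1 keeps only those replicates at E13.5. Without E13.5 replicate 1 the count of probes called was 1822 higher and 1821 lower, against 1365 (5.39%) and 1322 (5.22%) with it. Of these, 1219 and 1201 probes were shared. Xist, the RNA that coats the inactive X chromosome, was at 8.13, 4.65 and 8.94 at E13.5 and at 9.58, 8.18 and 8.98 at E11.5, and E13.5 replicate 2 was the one array of the 6 on which it was not above background (adjusted p = 0.501). The Y-linked gene Eif2s3y was at 7.62, 7.74 and 6.82 at E13.5 and at 7.57, 8.16 and 7.78 at E11.5 (adjusted p = 0.509). Of 4 sex-linked genes tested 0 passed, and the part of the embryos' sex in the results was not tested.

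The label of the population was set beside marker genes. Of 29 sarcomere genes tested, 27 were above background on all 6 arrays, as were 18 of 24 fibroblast and 15 of 23 endothelial genes. The same held for 23 of 24 proteasome genes, so a high count does not by itself mark a cell type. Among the sarcomere genes Myh7, the slow myosin heavy chain, read 10.93, 10.84 and 10.79 at E13.5 and 10.71, 10.98 and 10.95 at E11.5. Of 18 epicardial and mesothelial genes tested, 9 were above background on all 6 arrays. The epicardial transcription factor gene Tbx18 read 5.68, 5.58 and 5.42 at E13.5 and 6.13, 6.01 and 5.87 at E11.5, without passing the test (adjusted p = 0.062). It passed with the replicate number as a block (adjusted p = 0.035) and, among other settings, without E13.5 replicate 1 (log2 change -0.5, 0.0476). Aldh1a2, which makes retinoic acid in the epicardium, was not above background on any of the 6 arrays. Tcf21, Krt19, Krt8 and Upk3b of the same list, described below, were above background on all 6 arrays. Wt1 and Tnnt2 were not analysed here. In bulk RNA of this kind, fewer cells of a type and less RNA per cell cannot be told apart.

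Globin genes, which encode the oxygen carriers of red cells, led the rises. Beta globins are expressed in a developmental order along their cluster, and Hbb-y belongs to the embryonic wave while Hbb-bs and Hbb-bt are the adult genes. The promoters of 1 adult and 1 embryonic member are shown because these genes rose together here and parted later. The sequences are from RefSeq (GRCm38.p6), run 5′ to 3′ on the gene's strand from 250 bases before to 50 bases after the start, and carry in capitals CCAAT and CACCC, boxes known from beta globin promoters, searched on both strands.
Hbb-bs promoter, chr7:103827879-103828178, minus strand: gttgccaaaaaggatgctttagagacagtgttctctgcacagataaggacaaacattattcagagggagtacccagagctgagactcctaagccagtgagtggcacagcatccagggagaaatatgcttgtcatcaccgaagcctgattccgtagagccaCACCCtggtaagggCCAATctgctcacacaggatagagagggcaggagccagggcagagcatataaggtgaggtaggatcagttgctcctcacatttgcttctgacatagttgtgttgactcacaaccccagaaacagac
Hbb-y promoter, chr7:103853158-103853457, minus strand: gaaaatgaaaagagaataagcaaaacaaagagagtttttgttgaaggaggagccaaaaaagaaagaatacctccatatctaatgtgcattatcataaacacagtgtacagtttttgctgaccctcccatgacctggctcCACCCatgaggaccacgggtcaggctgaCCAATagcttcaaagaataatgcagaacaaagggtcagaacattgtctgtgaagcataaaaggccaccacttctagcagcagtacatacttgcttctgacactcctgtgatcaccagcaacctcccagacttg
In Hbb-bs the CCAAT begins at -76 and the CACCC at -90, and in Hbb-y they begin at -83 and -111. Such short runs are common: 37.4% of 32851 mouse promoters of this length hold CCAAT and 57.5% hold CACCC on either strand.

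Hbb-bs read 11.85, 9.64 and 11.10 at E13.5 and 5.69, 5.31 and 6.77 at E11.5, a 30.6-fold rise (log2 change 4.94, SE 0.40, limma adjusted p = 5.4e-09). Every E13.5 array lay above every E11.5 array, which the rule that picked the largest rises required. The E13.5 arrays spread over more than 2 units, replicate 2 being the lowest. Hbb-bt, its neighbour and near-identical copy, whose probe cannot be told from it with certainty, rose 35.1-fold (log2 change 5.13, SE 0.42). The alpha globin gene Hba-a1, which has a near-identical copy as well, read 11.01, 9.96 and 11.35 at E13.5 and 6.24, 5.77 and 6.62 at E11.5, a 23.6-fold rise (SE 0.31 on the log2 scale, adjusted p = 2.94e-10). The embryonic gene Hbb-y read 9.17, 8.83 and 9.65 at E13.5 and 6.11, 5.04 and 6.89 at E11.5, 9.21-fold higher (log2 change 3.20, SE 0.32, adjusted p = 1.74e-07). For all of these genes replicate 2 was the lowest array of each stage. Another embryonic beta globin gene, Hbb-bh1, went the other way. It read 5.43, 5.14 and 5.32 at E13.5 and 6.06, 5.64 and 6.06 at E11.5 (log2 change -0.63, SE 0.14, adjusted p = 0.00448).

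Of 13 erythroid genes tested, 5 rose and 2 fell, with a median change of 0.55 against -0.002 over all genes, and the counts were 5 and 1 without E13.5 replicate 1. The mean of the list over its genes, relative to its E11.5 level, lay between 1.10 and 1.75 on the E13.5 arrays and between -0.27 and 0.32 on the E11.5 arrays. The 5 that rose are all globin genes. Klf1, a red cell transcription factor gene, fell by 0.39 on the log2 scale (adjusted p = 0.0396, 1 of 3 E13.5 arrays above background). Its call was lost without E13.5 replicate 1 (adjusted p = 0.0674), 2 (0.147) or 3 (0.0507) and without E11.5 replicate 1 (0.0971) or 3 (0.184). The part of red cells or of their free RNA in the globin values was not tested.

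Genes of platelets and of megakaryocytes, the cells that shed them, were among the largest falls. Pf4 and Ppbp, chemokines stored in platelet granules, lie near each other on chromosome 5. The promoters of Pf4 and of Tubb1, the tubulin of the platelet's marginal band, are shown because both genes fell with the list and both windows hold a run searched for on both strands. The runs in capitals are AGATAA, a form of the GATA factor motif, and AGGAAG, which holds the core of the ETS factor motif (RefSeq, GRCm38.p6, same window as above).
Pf4 promoter, chr5:90772185-90772484, plus strand: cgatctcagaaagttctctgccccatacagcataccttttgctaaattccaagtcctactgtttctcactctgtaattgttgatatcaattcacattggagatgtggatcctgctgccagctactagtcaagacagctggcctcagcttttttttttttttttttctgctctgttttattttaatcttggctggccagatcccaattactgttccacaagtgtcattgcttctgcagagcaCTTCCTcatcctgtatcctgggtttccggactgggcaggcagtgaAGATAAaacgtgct
Tubb1 promoter, chr2:174450345-174450644, plus strand: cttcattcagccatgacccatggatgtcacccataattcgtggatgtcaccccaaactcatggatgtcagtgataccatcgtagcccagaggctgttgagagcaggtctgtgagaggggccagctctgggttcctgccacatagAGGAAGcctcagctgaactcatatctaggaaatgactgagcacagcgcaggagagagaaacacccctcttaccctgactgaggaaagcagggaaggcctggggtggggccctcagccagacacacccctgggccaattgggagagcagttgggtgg
Pf4 has AGATAA at 37 after the start and, on the opposite strand, AGGAAG from -9, while Tubb1 has AGGAAG from -106. Ppbp and Treml1 have neither. Of 17 platelet genes tested, 13 had a promoter entry, and 5 of these held AGATAA and 8 held AGGAAG. Among all 27025 mouse genes with an entry, 12.7% held AGATAA and 38.4% held AGGAAG. A match describes these letters alone.

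Pf4 read 4.95, 4.78 and 5.21 at E13.5 and 9.22, 8.78 and 8.46 at E11.5, and only 1 of the 3 E13.5 arrays was above background. Its log2 change was -3.84 (SE 0.17, limma adjusted p = 2.33e-13), with an E13.5 mean of 4.98 at the background limit, so the size of the fall is limited by that limit. Ppbp read 4.61, 4.43 and 4.98 at E13.5, all not above background, and 7.92, 7.76 and 7.11 at E11.5, which makes it at least 5.98-fold lower (adjusted p = 2.61e-11). Such a bound divides the E11.5 mean by the lowest signal that counts as above background. Tubb1 read 4.80, 4.90 and 5.29 at E13.5 and 7.79, 7.60 and 7.20 at E11.5 (log2 change -2.54, SE 0.16), with 1 of 3 E13.5 arrays above background and the same limit on its size. Treml1, a receptor of platelet granules, was 4.95-fold lower (log2 change -2.31, SE 0.15). Gp5, a subunit of the platelet receptor for von Willebrand factor, was at least 3.57-fold lower. In every one of these genes the E13.5 arrays lay near or under the background limit and the E11.5 arrays at least 1 unit above it.

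Of the 17 platelet genes tested, 12 fell and 0 rose, against 6.51% and 6.79% of all genes, and their median change was -1.05. The count that fell was 11 without E13.5 replicate 1 and between 8 and 12 over the alternatives. A probe entered the test through any 3 arrays, so genes above background at E11.5 alone, such as Ppbp, were included. Of the 17, 14 were above background on all E11.5 arrays and 3 on all E13.5 arrays. Genes admitted through E11.5 alone could hardly be called higher, which limits the comparison with all genes. The list's mean, relative to E11.5, lay between -1.31 and -1.09 on the E13.5 arrays and between -0.18 and 0.17 on the E11.5 arrays. Alox12, the lipoxygenase of platelets, was 4.74-fold lower without being on the list (log2 change -2.24, SE 0.16, 2 of 3 E13.5 arrays above background). Vwf, which endothelial cells and megakaryocytes make, read 5.11, 4.73 and 5.39 at E13.5 and 6.74, 6.43 and 6.43 at E11.5 (log2 change -1.45, SE 0.19, adjusted p = 6.66e-06). On the first day 11 of its genes fell (1.07% of all genes did), and on the second day 0 passed in either direction (1.21% of all genes rose and 1.42% fell on the second day). By E12.5 all 17 were at levels of 5.43 or less, so a further fall could hardly have been detected. Pf4 was at 8.82 at E11.5, 5.41 at E12.5 and 4.98 at E13.5, a step of -3.41 on the first day and of -0.43 on the second, and the steps differed (2.98, SE 0.30, adjusted p = 1.54e-05). The same test passed for Ppbp (2.67, SE 0.30, adjusted p = 5.59e-05) and for Treml1 (1.87, SE 0.26, adjusted p = 0.00113). Ppbp was not above background on any array of E12.5 or E13.5, and Pf4 and Treml1 were close to the limit at both, so the differences of the steps depend on the background limit and do not show that the fall had ended. Over all genes 0.156% passed this test of the steps.

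**Figure D2:**
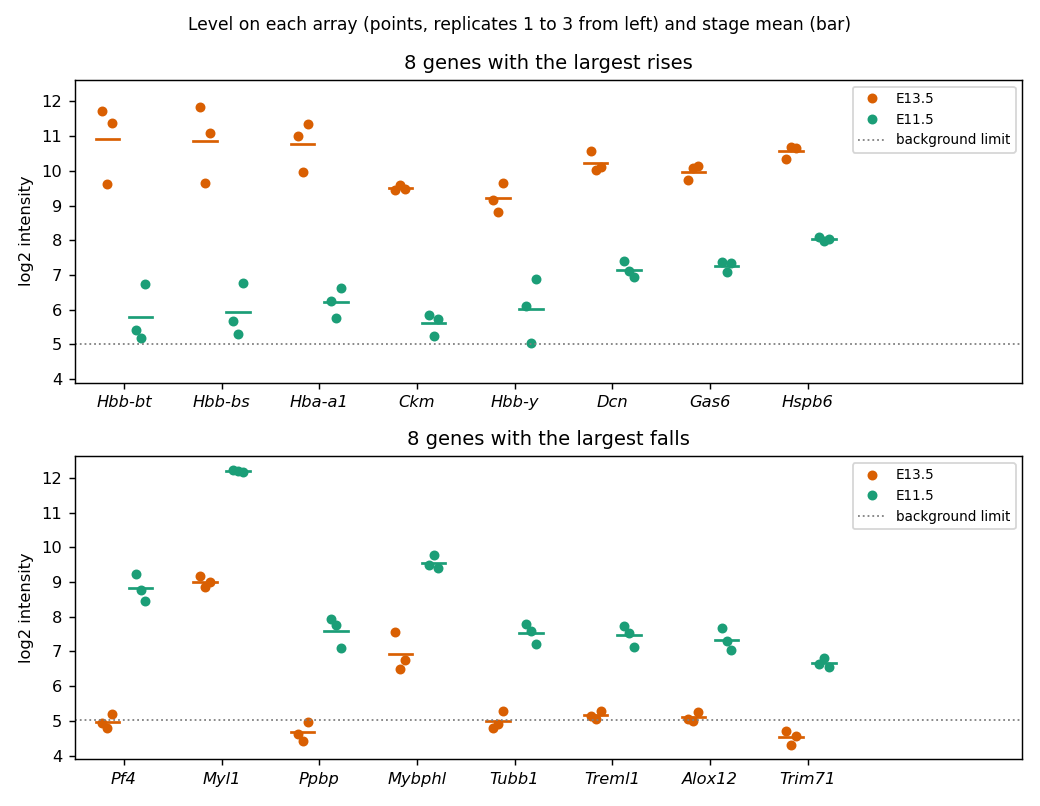
Points give the level (log2 intensity) on each E13.5 array (orange, left) and E11.5 array (green, right) for the 8 genes with the largest rises (top) and the 8 with the largest falls (bottom), bars give stage means and the dotted line the background limit of 5.02. The stages do not overlap for these genes because the rule that picked them required it. Most of the platelet genes sit at the dotted line at E13.5.

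Muscle genes changed in both directions, and most of them did not pass the test. Ckm, the muscle creatine kinase that buffers ATP in contracting cells, read 9.44, 9.60 and 9.47 at E13.5 and 5.86, 5.25 and 5.74 at E11.5, a 14.8-fold rise (log2 change 3.88, SE 0.16, limma adjusted p = 2.84e-14). Its stages lay more than 3 units apart, with a narrow spread in each. Myl1, a myosin light chain of fast skeletal muscle that early heart muscle also uses, read 9.18, 8.86 and 9.0 at E13.5 and 12.23, 12.21 and 12.16 at E11.5, 9.11-fold lower (log2 change -3.19, SE 0.17). The myosin-binding protein gene Mybphl, best known from atria, read 7.56, 6.50 and 6.74 at E13.5 and 9.49, 9.78 and 9.40 at E11.5 (log2 change -2.62, SE 0.20, adjusted p = 1.76e-09). Mylpf, another light chain of fast muscle, was 3.69-fold lower (log2 change -1.89, SE 0.16). Acta1, the skeletal alpha actin, fell by 1.26 on the log2 scale (SE 0.18, adjusted p = 2.34e-05). Tnnt1, the slow skeletal troponin T, rose 2.45-fold (log2 change 1.29, SE 0.22), and Myoz2, a Z-disc protein that binds calcineurin, rose 1.59-fold (adjusted p = 0.00369).

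Of 29 sarcomere genes, 5 rose and 4 fell, with a median change of 0.07. The cardiac myosin heavy chain genes did not pass. Myh6 read 11.37, 11.49 and 11.98 at E13.5 and 12.07, 11.87 and 12.01 at E11.5 (log2 change -0.37, adjusted p = 0.169), and its stages overlapped. Hspb6, a small heat shock protein of muscle, read 10.34, 10.69 and 10.65 at E13.5 and 8.09, 7.97 and 8.03 at E11.5, 5.79-fold higher (log2 change 2.53, SE 0.12, adjusted p = 5.48e-13).

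The list of calcium handling and ion channels also holds gap junction genes. Of its 24 genes tested, 4 rose and 6 fell, or 4 and 2 without E13.5 replicate 1, and between 1 and 7 fell over the alternatives. Casq2, the calcium store protein of the cardiac sarcoplasmic reticulum, read 8.21, 8.14 and 8.32 at E13.5 and 6.23, 5.81 and 6.64 at E11.5, 3.98-fold higher (log2 change 1.99, SE 0.16, adjusted p = 5.4e-09). Cacnb2, a subunit of the L-type calcium channel, fell by 1.06 on the log2 scale (SE 0.24, adjusted p = 0.00394).

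Genes of chamber identity and of the conduction system were lower as a list. Of 25 tested, 12 fell and 1 rose, with a median change of -0.47, and without E13.5 replicate 1 the counts were 10 and 1. Over the alternatives between 7 and 13 fell, with 7 without E13.5 replicate 2. Irx3, a homeobox gene of the ventricular conduction network, read 6.58, 6.92 and 6.90 at E13.5 and 7.85, 8.06 and 8.17 at E11.5 (log2 change -1.23, SE 0.16, adjusted p = 1.22e-05). Irx5, a related gene active in the ventricle, fell by 1.07 on the log2 scale (SE 0.15). Cited1, a transcriptional coactivator, was 2.53-fold lower (log2 change -1.34, SE 0.18). Bmp10, a growth factor of trabecular muscle, was not above background on any E13.5 array and was at least 1.68-fold lower. Nppa, the atrial natriuretic peptide made by trabeculae and atria, read 11.71, 11.75 and 12.05 at E13.5 and 12.63, 12.97 and 12.92 at E11.5 (log2 change -1.0, SE 0.26, adjusted p = 0.0147). That call was lost with a trended, robust variance prior (adjusted p = 0.0768), without E13.5 replicate 2 (0.0617) and without E11.5 replicate 2 or 3 (0.0588 and 0.0602). The stages of these genes did not overlap. Hey2, a transcriptional repressor expressed in compact ventricular muscle, was the 1 gene of the list that rose (8.90, 9.70 and 9.23 at E13.5 and 8.67, 8.46 and 8.56 at E11.5, log2 change 0.72, SE 0.15, adjusted p = 0.00202).

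Among 19 cardiac transcription factors 2 rose and 1 fell, 15.8% called against 13.3% of all genes. The counts were 4 and 1 without E13.5 replicate 1, with between 0 and 4 higher over the alternatives. The one that fell was Mef2c, a regulator of muscle genes (log2 change -0.63, SE 0.13, adjusted p = 0.00195).

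Many matrix and mesenchymal genes were higher at E13.5. Of 24 fibroblast and mesenchyme genes tested, 11 rose and 2 fell, with a median change of 0.57, and without E13.5 replicate 1 the counts were 10 and 2 and the median 0.40. Their mean, relative to E11.5, lay between 0.55 and 0.93 on the E13.5 arrays and between -0.16 and 0.18 on the E11.5 arrays, with replicate 1 the highest of each stage. Dcn, the collagen-binding proteoglycan decorin, read 10.56, 10.03 and 10.10 at E13.5 and 7.40, 7.12 and 6.94 at E11.5, 8.44-fold higher (log2 change 3.08, SE 0.27, limma adjusted p = 1.96e-08). Col1a1, the main fibrillar collagen, read 8.10, 8.23 and 8.64 at E13.5 and 6.47, 5.82 and 5.78 at E11.5 (log2 change 2.30, SE 0.23, adjusted p = 1.26e-07). Ogn, a small proteoglycan related to decorin, read 8.91, 8.17 and 7.92 at E13.5 and 6.38, 5.43 and 6.18 at E11.5 (log2 change 2.34, SE 0.26). In all of them the stages lay apart by more than the spread of either. Mfap4, a protein of elastic microfibrils, rose 4.05-fold (log2 change 2.02, SE 0.18). Tcf21, the transcription factor gene of fibroblast precursors, read 8.43, 7.69 and 7.91 at E13.5 and 6.48, 6.15 and 5.84 at E11.5, 3.61-fold higher (log2 change 1.85, SE 0.19, adjusted p = 3.55e-07).

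Pdgfra, the growth factor receptor of the same cells, read 9.2, 8.06 and 8.29 at E13.5 and 8.02, 7.42 and 7.35 at E11.5 (log2 change 0.91, SE 0.25, adjusted p = 0.0205). Its call was lost without E13.5 replicate 1 (adjusted p = 0.131), without E11.5 replicate 2 (0.0841) or 3 (0.109), with no background correction (0.0739) and with a trended, robust variance prior (0.0668), and another Pdgfra probe had the opposite sign without passing.

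Collagens rose in 9 of 21 genes and fell in 3, with a median of 0.56, or 9 and 2 with a median of 0.36 without E13.5 replicate 1. Col6a1, a chain of the beaded collagen that surrounds cells, read 8.58, 8.51 and 9.23 at E13.5 and 6.75, 6.55 and 6.68 at E11.5 (log2 change 2.11, SE 0.20, adjusted p = 8.34e-08), and Col26a1 rose 3.37-fold (log2 change 1.75, SE 0.21). Of 33 genes of the wider matrix, basement membrane and elastic fibre, 14 rose and 4 fell, with 14 and 2 without E13.5 replicate 1. Thbs2, a matrix glycoprotein, rose 3.25-fold (log2 change 1.70, SE 0.29), and Nid2, a basement membrane linker, fell by 0.94 on the log2 scale (SE 0.13, adjusted p = 3.29e-05). Several matrix genes of the endocardial cushions, the swellings that form the valves, were lower. Vcan, the large proteoglycan of cardiac jelly, read 6.29, 6.21 and 5.82 at E13.5 and 7.84, 7.93 and 7.84 at E11.5, 3.39-fold lower (log2 change -1.76, SE 0.15, adjusted p = 1.28e-08). Hapln1, which links versican to hyaluronan, was at least 2.10-fold lower, and Has2, which makes hyaluronan, fell by 1.04 on the log2 scale (SE 0.17). The stages did not overlap for these 3. Over the whole list of 17 valve and cushion genes 5 rose and 4 fell.

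The TGF-beta and epithelial-to-mesenchymal transition list rose in 9 of 23 genes and fell in 1, with a median of 0.22 (8 and 2 without E13.5 replicate 1, and between 6 and 9 higher over the alternatives). Ltbp4, which anchors latent TGF-beta in the matrix, rose 3.47-fold (log2 change 1.80, SE 0.23), and its relative Ltbp3 rose 2.06-fold (SE 0.15 on the log2 scale). Inhba, a chain of activin A, read 7.47, 7.55 and 7.59 at E13.5 and 6.31, 5.86 and 6.12 at E11.5 (log2 change 1.44, SE 0.18). Snai1, a repressor of epithelial junction genes, rose 1.63-fold (adjusted p = 0.000483), and Tgfbr3, the TGF-beta co-receptor betaglycan, fell by 0.78 on the log2 scale. Mmp2, a gelatinase that works in the matrix, read 9.22, 8.76 and 9.26 at E13.5 and 7.65, 7.26 and 7.04 at E11.5, 3.39-fold higher (log2 change 1.76, SE 0.22, adjusted p = 3.69e-06). Its inhibitor Timp2 rose 1.69-fold (SE 0.13 on the log2 scale). In metalloproteinases and their inhibitors together, 3 of 18 rose and 1 fell.

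**Figure D3:**
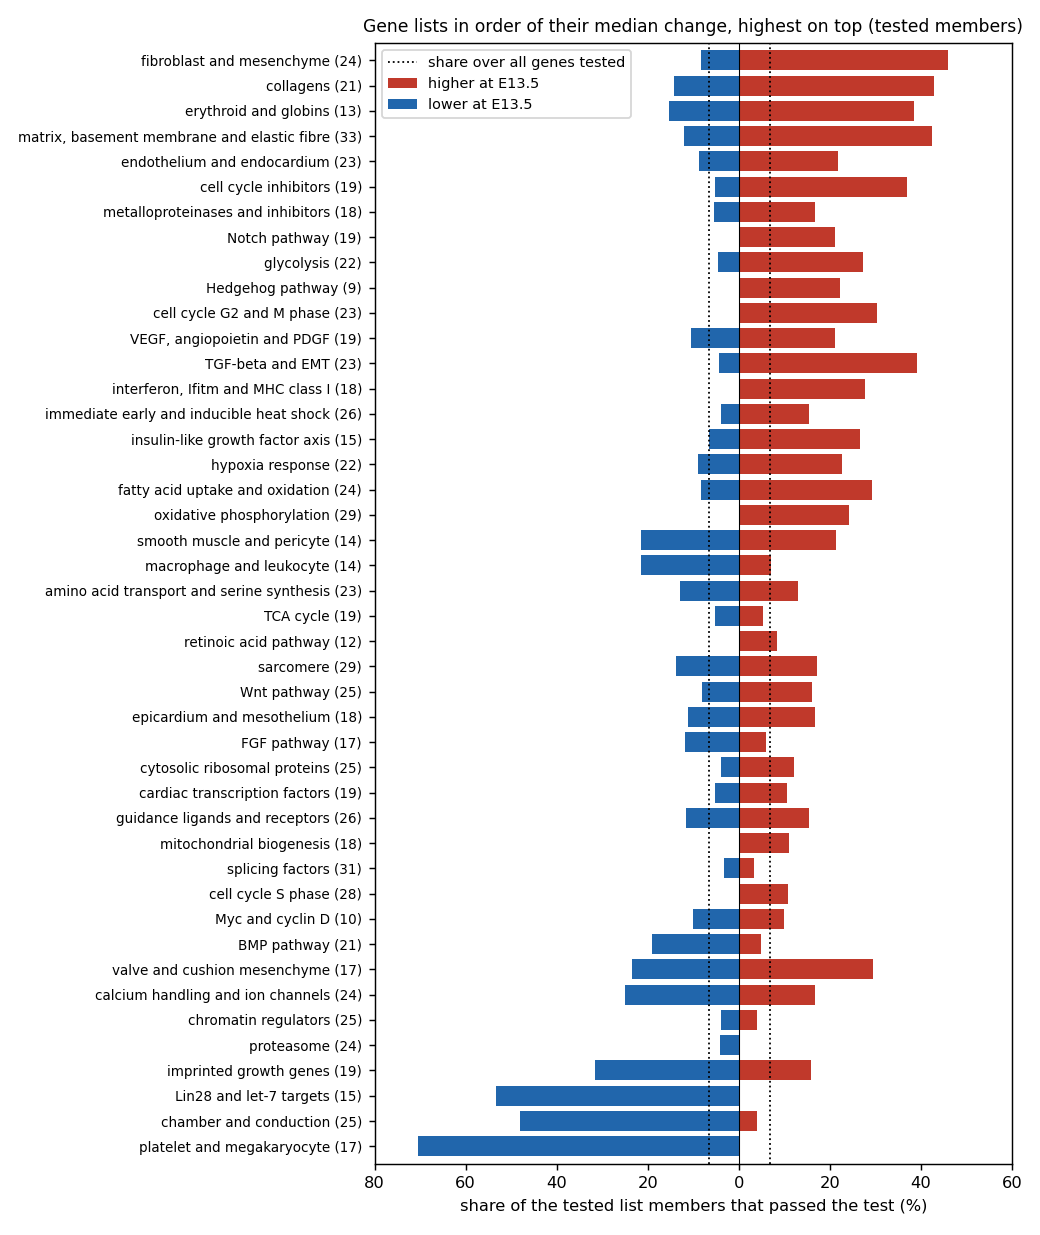
Bars give the share (%) of each list's tested genes that were higher at E13.5 (red, to the right) or lower (blue, to the left), for lists with 9 tested genes or more, ordered by the list's median change, and the dotted lines mark the shares over all genes, 6.79% and 6.51%. Fibroblast, collagen and matrix lists are at the top and platelet, chamber and Lin28 lists at the bottom.

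Epicardial genes showed no common direction, with 3 of 18 higher, 2 lower (3 and 3 without E13.5 replicate 1) and a median of 0.04. Those higher were Krt19, Rarres2 and Tcf21, which is counted among the fibroblast genes as well. Those lower were Krt8 and Upk1b (log2 change -0.69). The call of Upk1b was lost without E13.5 replicate 2 (log2 change -0.5, limma adjusted p = 0.0658). Krt19, a keratin of the mesothelium, read 7.35, 7.71 and 7.58 at E13.5 and 6.47, 6.0 and 6.53 at E11.5 (log2 change 1.21, SE 0.15, limma adjusted p = 6.18e-06), while Krt8, another keratin of simple epithelia, fell by 0.81 (SE 0.14, adjusted p = 0.000271). Upk3b, a mesothelial surface gene, read 6.80, 5.97 and 6.46 at E13.5 and 6.79, 6.47 and 6.03 at E11.5, and its stages overlapped throughout. In the retinoic acid pathway 1 of 12 genes rose and 0 fell. It was Rarres2, a secreted factor that retinoids induce in other cells, at 7.15, 6.37 and 6.37 at E13.5 and 5.71, 5.31 and 5.35 at E11.5 (log2 change 1.18, SE 0.21).

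Markers of other cell types were read in the same way. Endothelial and endocardial genes rose in 5 of 23 and fell in 2 (3 and 2 without E13.5 replicate 1, and between 3 and 9 higher over the alternatives), and their list mean, relative to E11.5, was between 0.07 and 0.48 on the E13.5 arrays, highest on replicate 1, and between -0.12 and 0.10 on the E11.5 arrays. Robo4, a receptor of endothelial cells, rose 2.28-fold (log2 change 1.19, SE 0.20), and Cdh5, the endothelial cadherin, rose 1.78-fold (adjusted p = 0.00508). Pecam1, a general endothelial surface gene, read 5.99, 5.83 and 6.10 at E13.5 and 5.45, 5.37 and 5.47 at E11.5 without passing (log2 change 0.55, adjusted p = 0.0702), though it passed with the replicate number as a block (adjusted p = 0.0449). Plvap, of endothelial diaphragms, fell by 0.77 on the log2 scale. Smooth muscle and pericyte genes rose in 3 of 14 and fell in 3. Pdgfrb, the pericyte receptor, rose 1.74-fold (adjusted p = 0.00123, with 2 of 3 E11.5 arrays above background), Mcam, an adhesion molecule, rose by 1.0 on the log2 scale (SE 0.14), and Tagln, an early smooth muscle gene, fell by 1.16 (SE 0.16). Leukocyte genes rose in 1 of 14 and fell in 3, Coro1a and Laptm5 among them (log2 change -1.04 and -0.84), and of 2 neural crest genes tested 0 passed. The part of these cells in the changes above was not tested.

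Genes of the Lin28 and let-7 axis were lower at E13.5. Lin28 proteins hold back the maturation of let-7 microRNAs, and let-7 represses a set of early growth genes through sites that match its seed. The arrays did not measure let-7 itself, and 3 members (RefSeq, GRCm38.p6) are shown because the list is built on the seed they share, given in capitals as bases 2 to 8.
mmu-let-7a-5p: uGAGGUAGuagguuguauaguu
mmu-let-7b-5p: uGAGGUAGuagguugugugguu
mmu-let-7g-5p: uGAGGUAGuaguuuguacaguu
Of 15 genes of the axis tested, 8 fell and 0 rose, with a median of -0.43, and 7 fell without E13.5 replicate 1 and 7 or 8 under every alternative. Trim71, an RNA-binding ubiquitin ligase and classical let-7 target, read 4.71, 4.30 and 4.56 at E13.5, not above background, and 6.64, 6.80 and 6.56 at E11.5, at least 3.14-fold lower (limma adjusted p = 1.27e-10). Igdcc3, an immunoglobulin domain membrane protein, read 5.74, 5.61 and 6.02 at E13.5 and 7.86, 7.94 and 7.84 at E11.5, 4.27-fold lower (log2 change -2.09, SE 0.15). Arid3b, a DNA-binding protein, read 6.2, 6.15 and 6.69 at E13.5 and 7.86, 7.93 and 8.21 at E11.5 (log2 change -1.66, SE 0.14). Igf2bp1, which binds and protects growth mRNAs, fell by 1.41 on the log2 scale (SE 0.15, adjusted p = 3.3e-07). The stages of all 4 lay apart, which for Trim71 and Igdcc3 the rule that picked the largest falls required. By day, 4 of 15 fell on the first (1.07% of all genes) and 6 on the second (1.42%). Igdcc3 changed by -0.98 on the first day and by -1.12 on the second, and Arid3b by -0.80 and -0.86. Whether this timing differs from that of the platelet list was not tested.

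Some cell cycle genes were modestly higher. Of 23 genes of G2 and mitosis, 7 rose and 0 fell, with a median of 0.24 (7 and 1 without E13.5 replicate 1). Between 4 and 10 of them rose over the alternatives, with 4 without E13.5 replicate 2 or E11.5 replicate 1. Of 28 S phase genes 3 rose and 0 fell, 10.7% called against 13.3% of all genes. Their median was -0.02, so the S phase list showed no common rise. The S phase counts were 5 and 1 without E13.5 replicate 1, with between 1 and 5 higher over the alternatives. In the Myc and cyclin D list 1 of 10 rose and 1 fell. Cdk1, the mitotic kinase, read 9.57, 10.17 and 9.88 at E13.5 and 9.14, 9.16 and 9.15 at E11.5, 1.65-fold higher (SE 0.16 on the log2 scale, adjusted p = 0.00372). Prc1 and Kif11, which build the spindle, rose 1.61-fold and 1.51-fold, and E2f1, which turns on replication genes, rose 1.53-fold. In the list of cycle inhibitors and growth arrest genes 7 of 19 rose and 1 fell. Between 4 and 8 rose over the alternatives, with 4 without E13.5 replicate 2. Cdkn2c, an inhibitor of CDK4 and CDK6, read 7.07, 7.20 and 7.08 at E13.5 and 5.91, 6.02 and 6.04 at E11.5 (log2 change 1.12, SE 0.13, adjusted p = 1.63e-06). Gas6, listed for its link to growth arrest and not as a CDK inhibitor, encodes a receptor tyrosine kinase ligand. Gas6 had the largest change of that list, at 9.73, 10.08 and 10.13 at E13.5 and 7.37, 7.08 and 7.36 at E11.5, 6.55-fold higher (log2 change 2.71, SE 0.13, adjusted p = 5.48e-13). Cdkn1c, the imprinted CDK inhibitor p57, went the opposite way, at 12.78, 12.18 and 12.28 at E13.5 and 13.79, 13.86 and 13.67 at E11.5 (log2 change -1.36, SE 0.17, adjusted p = 3.67e-06). Mest, which is imprinted too, was 2.79-fold lower (log2 change -1.48, SE 0.17), and Ndn was 1.71-fold lower. Of 19 imprinted growth genes 6 fell and 3 rose. Dlk1, the imprinted membrane ligand, was among those that rose (log2 change 1.27, SE 0.23), and its rise came with the second day. It was at 7.98 at E11.5, 7.49 at E12.5 and 9.25 at E13.5, and its steps differed (2.24, SE 0.40, adjusted p = 0.00983). That test was lost without background correction (adjusted p = 0.18), with an offset of 50 (0.0746) and with a trended, robust variance prior (0.0728).

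Metabolic lists had small median changes, with a few genes past 2-fold. In oxidative phosphorylation 7 of 29 genes rose and 0 fell, with a median of 0.12, and between 3 and 9 rose over the alternatives. Cox8b, a cytochrome oxidase subunit of muscle, read 9.90, 9.60 and 9.40 at E13.5 and 8.10, 8.53 and 8.40 at E11.5, 2.45-fold higher (log2 change 1.29, SE 0.17, limma adjusted p = 7.24e-06). Perm1, which regulates mitochondrial genes in muscle, was 2.5-fold higher (log2 change 1.32, SE 0.16), and it and Esrrb were the 2 of 18 mitochondrial biogenesis genes that rose. Fatty acid genes rose in 7 of 24 and fell in 2 (between 3 and 10 rose over the alternatives, with 3 without E11.5 replicate 3, and between 0 and 3 fell), with Fabp3, the heart fatty acid binding protein, 1.82-fold higher (adjusted p = 1.56e-05) and Pdk4, which slows glucose oxidation, 1.74-fold higher. Glycolysis genes rose in 6 of 22, or between 3 and 7 over the alternatives, and fell in 1. The 1 was Slc2a1, the glucose transporter of the fetal heart, at 11.23, 11.24 and 11.12 at E13.5 and 12.47, 12.12 and 12.26 at E11.5 (log2 change -1.09, SE 0.15, adjusted p = 1.81e-05). Aldoc, an aldolase isozyme, read 7.91, 8.0 and 7.79 at E13.5 and 6.72, 6.72 and 6.53 at E11.5 (log2 change 1.24, SE 0.13), and Pfkp, a phosphofructokinase, rose 2.27-fold. In the hypoxia list, which shares Slc2a1, 5 of 22 rose, or between 2 and 6 over the alternatives, and 2 fell. The TCA cycle had 1 riser, Suclg2, and 1 faller, Bdh1, of 19 (3 and 2 without E13.5 replicate 1). Psat1, of serine synthesis, rose 2.63-fold (log2 change 1.40, SE 0.17), while 3 of 23 amino acid genes rose and 3 fell (4 and 4 without E13.5 replicate 1).

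Signalling genes were called in scattered fashion. Dkk3, a secreted member of the Dickkopf family, was the leading one to fall. It read 8.63, 8.01 and 7.88 at E13.5 and 10.31, 10.38 and 10.23 at E11.5, 4.39-fold lower (log2 change -2.13, SE 0.15, limma adjusted p = 3.97e-10). Of 25 Wnt genes 4 rose and 2 fell (24% called against 13.3% of all genes), or between 2 and 4 and between 1 and 3 over the alternatives. Of 21 BMP genes 4 fell and 1 rose, and the receptor gene Bmpr1b was 2.42-fold lower (log2 change -1.28, SE 0.16) and the target gene Id2 1.85-fold lower. In the Notch pathway 4 of 19 rose and 0 fell (6 and 0 without E13.5 replicate 1). Nrarp, a Notch target that feeds back on the pathway, read 6.94, 7.17 and 7.53 at E13.5 and 5.57, 5.30 and 5.57 at E11.5, 3.32-fold higher (log2 change 1.73, SE 0.16, adjusted p = 3.55e-08), and Hey2, named above, is a Notch target too.

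Among vascular growth factors 4 of 19 rose, or between 1 and 5 over the alternatives, and 2 fell. Angpt1, the ligand that endothelial cells receive from heart muscle, read 5.29, 5.49 and 5.12 at E13.5 and 6.23, 6.67 and 6.64 at E11.5 (log2 change -1.21, SE 0.18, adjusted p = 4.2e-05), and its antagonist Angpt2 was 1.52-fold lower. Guidance genes rose in 4 of 26 and fell in 3 (2 and 4 without E13.5 replicate 1). Sema5a rose 2.96-fold (log2 change 1.57, SE 0.16), while Sema3a, a repellent for axons, fell by 1.09 and the ephrin receptor gene Epha7 fell by 1.2. Of 17 FGF genes 1 rose and 2 fell, Fgf10 by 0.95 (1 of 3 E13.5 arrays above background). Of 9 Hedgehog genes 2 rose (1 without E13.5 replicate 1) and 0 fell, with the transcription factor gene Gli2 1.65-fold higher (adjusted p = 0.000886). In the insulin-like growth factor axis 4 of 15 rose (2 without E13.5 replicate 1) and 1 fell, which was Igfbp5 (log2 change -0.99, SE 0.17), and the receptor gene Insr rose 1.61-fold.

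Interferon, Ifitm and MHC class I genes rose in 5 of 18, or between 3 and 5 over the alternatives, and fell in 0. Ifitm3, a membrane protein that blocks virus entry, read 7.11, 6.91 and 7.25 at E13.5 and 5.94, 5.36 and 5.36 at E11.5 (log2 change 1.54, SE 0.18, adjusted p = 2.6e-06), and Ifitm1 and Ifitm2 were 1.96-fold and 1.94-fold higher. Immediate early and heat shock genes, which respond to handling as well as to signals, rose in 4 of 26 and fell in 1 (6 and 1 without E13.5 replicate 1, and between 1 and 6 higher over the alternatives). Ier3 rose 2.54-fold (log2 change 1.35, SE 0.22), and Hsph1, a heat shock co-chaperone, fell by 0.96.

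Hspa1a, an inducible Hsp70 gene, had lower means at E11.5 and E13.5 than on the other days. Another of its 3 tested probes had the opposite sign for E13.5 against E11.5 without passing. The mean of Hspa1a was 5.10 on E11.5 arrays, then 8.92 on those of E12.5 and 6.78 on those of E13.5. Later it was 8.03 on those of E14.5, 7.96 on those of E15.5 (SD 1.46, n = 3) and 8.91 on those of E16.5. E13.5 replicate 2 read 7.70, and E13.5 was not tested against the later days. The steps of Hspa1a over the first 2 days differed by -5.96 (SE 0.73, limma adjusted p = 0.000163). Its call for E13.5 against E11.5 (log2 change 1.68, SE 0.42, adjusted p = 0.00968, with 2 of 3 E11.5 arrays above background) was lost without E13.5 replicate 2 (log2 change 1.22, adjusted p = 0.101), the E13.5 array on which it was highest. It was lost too with no background correction (log2 change 0.8, adjusted p = 0.188), with an offset of 50 (1.1, 0.0859) and with a trended, robust variance prior (0.0833). Its near-identical copy Hspa1b, whose probe cannot be assigned to it with certainty, had the same order of means over the first 3 stages. The steps of Hspa1b differed by -2.52 (SE 0.41, adjusted p = 0.00389), a test lost with no background correction (0.0697). Its means were 5.02 at E11.5, 6.36 at E12.5 and 5.18 at E13.5. Only 1 of 3 E11.5 and 2 of 3 E13.5 arrays were above background, which limits the size of its steps. Txnip, which responds to glucose, was at 8.76 at E11.5, then 10.17 at E12.5 and 9.22 at E13.5, and between 9.9 and 10.33 on the later days (difference of steps -2.36, SE 0.36, adjusted p = 0.00322). The mitochondrial gene ND5 was low on the same days (6.99 at E11.5, then 7.99 at E12.5 and 6.5 at E13.5, and between 7.78 and 8.04 later), and its steps differed (-2.48, SE 0.48, adjusted p = 0.023), but not without E13.5 replicate 2 (0.065) or 3 (0.0712), with no background correction (0.104), with an offset of 50 (0.0711) or with a trended, robust variance prior (0.217). Hspa1b, Txnip and ND5 did not pass for E13.5 against E11.5, and the stages of each overlapped. ND5 passed as lower without E13.5 replicate 1 (log2 change -0.93, adjusted p = 0.0108) or E11.5 replicate 1 (-0.88, 0.0365). Txnip passed as higher without E13.5 replicate 2 (0.78, 0.0129).

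Housekeeping lists held few calls. Of 25 cytosolic ribosomal genes 3 rose and 1 fell, of 24 proteasome genes 0 rose and 1 fell, of 31 splicing factors 1 rose and 1 fell, and of 25 chromatin regulators 1 rose and 1 fell, shares at or under those over all genes except for the ribosomal rises. Without E13.5 replicate 1 the falls among proteasome genes and chromatin regulators were 5 each, ribosomal genes had 4 in each direction, and 2 proteasome genes, 3 splicing factors and 2 chromatin regulators rose.

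Several of the largest changes lay outside these lists. Septin6, of the septin cytoskeleton, read 10.10, 10.15 and 10.56 at E13.5 and 7.91, 7.52 and 7.99 at E11.5, 5.52-fold higher (log2 change 2.47, SE 0.15, limma adjusted p = 4.55e-11). Mlf1, known from a leukaemia fusion, rose 4.94-fold (log2 change 2.30, SE 0.17). Ptn, the growth factor pleiotrophin, read 10.88, 10.55 and 10.46 at E13.5 and 8.53, 8.27 and 8.31 at E11.5, 4.81-fold higher (log2 change 2.26, SE 0.15). Chn2, a GTPase-activating protein for Rac, read 7.31, 7.76 and 7.82 at E13.5 and 5.73, 5.33 and 5.30 at E11.5, 4.53-fold higher (log2 change 2.18, SE 0.16). On the falling side Alcam, a cell adhesion molecule of early heart muscle, read 7.02, 6.79 and 6.61 at E13.5 and 8.74, 8.69 and 8.52 at E11.5, 3.59-fold lower (log2 change -1.84, SE 0.13). Rec114, known from meiotic recombination, was 4.0-fold lower, and Slc51a, a subunit of a steroid and bile acid transporter, 3.84-fold lower (log2 change -1.94, SE 0.15). The stages of these 7 genes did not overlap, which the rule that picked the largest changes required.

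Fewer genes passed on either day than over both days, 272 on the first (2.12%, or 1.04% higher and 1.07% lower) and 338 on the second (2.63%). Of the 873 genes that rose over the 2 days, 96 passed in the same direction on the first day alone, 101 on the second alone, 28 on both and 648 on neither. Of the 837 that fell, the counts were 97, 124, 31 and 585. Both steps share the E12.5 arrays. Ckm was among those that passed on both (2.13 on the first day and 1.75 on the second), as was Myl1 (-1.81 and -1.38). Casq2 passed on the first day (1.58) and not on the second (0.41, adjusted p = 0.19), and Aldoc on the second (1.32) and not on the first (-0.09, adjusted p = 0.889). The test of the second step against the first passed for 11 genes in the positive direction (0.0856%) and 9 in the negative (0.07%). Among probes it passed for 22 (0.0868%) and 16 (0.0631%), where 1.59% of probes passed on the first day and 2.09% on the second. Without E13.5 replicate 1 the probe counts were 40 and 57.

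**Figure D4:**
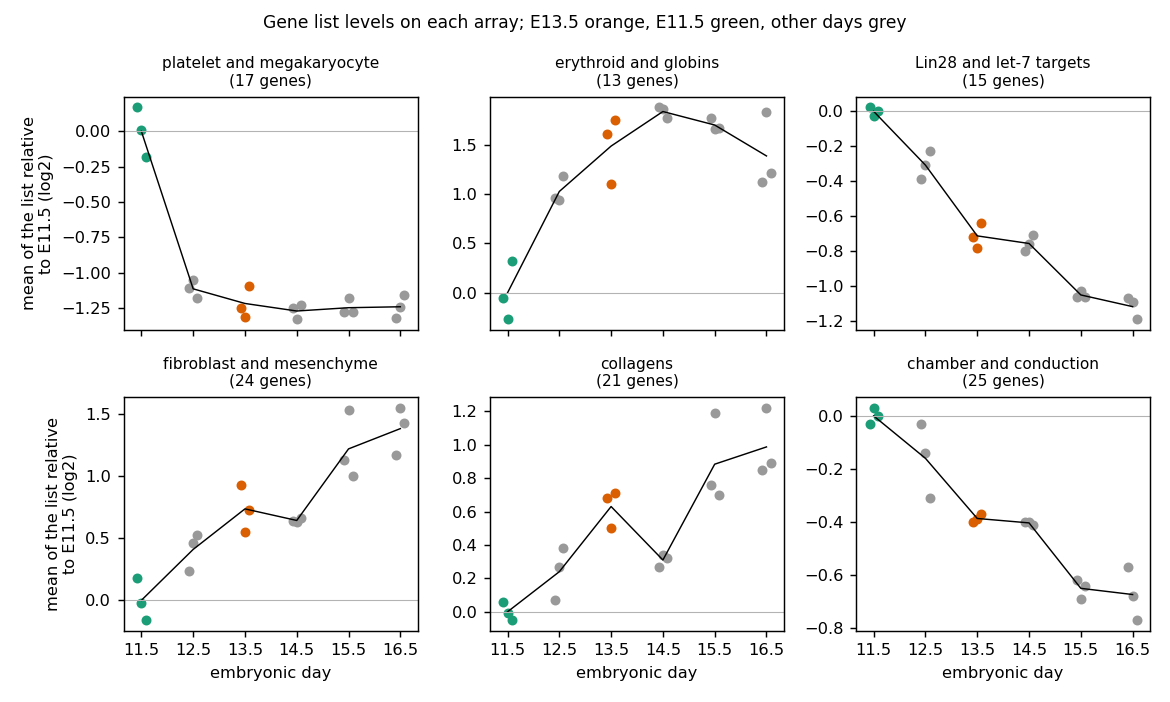
Points give, for each of the 18 arrays, the mean over a list's genes relative to the list's E11.5 level (log2, vertical axis) against embryonic day (horizontal axis), with E11.5 in green, E13.5 in orange, other days in grey and lines through stage means, for 6 lists. The platelet list is at its low level by E12.5, the Lin28 and chamber lists are lower at E13.5 than at E12.5, and the collagen list is lower at E14.5 than at E13.5.

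The change over the first 2 days was set against that over the last 2, E16.5 minus E14.5, which uses none of the same arrays and called 1246 genes (9.69%), 665 higher (5.17%) and 581 lower (4.52%). The 2 changes differed for 753 of 12856 genes (5.86%), in the positive direction for 396 (3.08%) and in the negative for 357 (2.78%). Among probes 633 (2.5%) and 500 (1.97%) passed, 4.47% in all, or 1070 and 943 without E13.5 replicate 1 and 471 and 311 without E13.5 replicate 2. Hbb-y had the largest difference. Its change was 3.20 over the first 2 days and -4.0 over the last 2, a difference of 7.20 (SE 0.45, limma adjusted p = 2.62e-10). It was at 5.04 ± 0.30 at E16.5 and at 9.05 ± 0.08 at E14.5 (mean ± SD, n = 3 each). Only 1 of the 3 E16.5 arrays was above background, so the background limit restricts the size of the later fall and of the difference. The adult genes did not pass over the last 2 days. Hbb-bt differed by 0.02 there (adjusted p = 0.992) and Hbb-bs by 0.01 (0.993), so that their first-minus-last differences were 5.12 (SE 0.59) and 4.92 (SE 0.57), and that of Hba-a1 was 4.66 (SE 0.44). Chn2 rose over the first 2 days and fell over the last 2 (-1.19, adjusted p = 2.6e-05), a difference of 3.37 (SE 0.23, adjusted p = 9.8e-10).

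On the negative side, Pf4 differed by -4.24 (SE 0.25), Ppbp by -2.77 (SE 0.24) and Alox12 by -2.52 (SE 0.23). None of these 3 passed over the last 2 days, when Pf4 and Ppbp started from levels not above background. Myl1 fell in both periods (-3.19 and -0.67) and differed by -2.51 (SE 0.24, adjusted p = 4.06e-07). Eif2s3y differed by -3.51 (SE 0.49, adjusted p = 5.83e-05), and its 3 arrays at E14.5, at 4.46 ± 0.15 (SD, n = 3), were not above background. It did not pass for E13.5 against E11.5 (log2 change -0.44, SE 0.35, adjusted p = 0.509). Over all genes the difference passed for 3.08% in the positive and 2.78% in the negative direction. By list, it passed for 12 of 17 platelet genes, all in the negative direction. That list was at its low level by E12.5 and could hardly fall further, so this count largely repeats its fall over the first 2 days. The difference also passed for 10 of 22 glycolysis genes and 8 of 23 genes of G2 and mitosis, all in the positive direction. Among erythroid genes it passed for 5 in the positive and 1 in the negative.

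**Figure D5:**
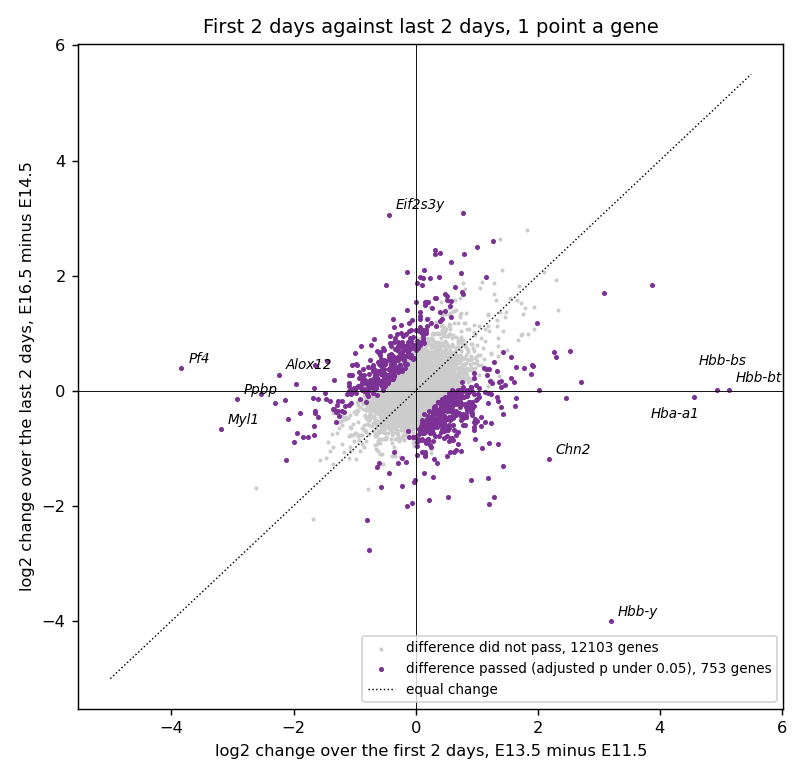
Each point is a gene, with its log2 change over the first 2 days (E13.5 minus E11.5) on the horizontal axis and over the last 2 days (E16.5 minus E14.5) on the vertical axis, and the dotted line marks equal change. The 753 genes whose changes differed are purple, with Hbb-y at the lower right, the adult globin genes at the right near 0 and Pf4 at the left near 0.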

How the data were processed

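The authors deposited linear probe intensities, which look quantile-normalized between arrays, since once sorted they spread by no more than 0.0873% across the 18 arrays. Per the submitters' processing notes the software was GenomeStudio 2011.1, and its settings are not given in the sources used here. The lowest intensity was 83.8, the median 104 and the highest 17400. Another deposited table holds 36 value columns whose names fit no label, and it stayed out. Detection p-values and chip positions were therefore not used.

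Background was corrected with normexp (offset 16; limma 3.58.1 in R 4.3.3) and log2 taken. No further normalization was done. The background limit, an intensity of 105.4, adds 1.64 SD (3.91, from the values under the mode) to the modal intensity of 99, and probes above it on at least 3 of 18 arrays were tested. Between 20158 and 20159 probes lay above it on every array, which after quantile normalization says nothing of an array's quality. Precision is limited by having 3 arrays a stage. All 18 arrays entered 1 model with a coefficient per stage (lmFit, eBayes, 12 residual degrees of freedom), from which came E13.5 against E11.5, the steps of each day, their difference, and the first 2 days against the last 2. Alternatives were no background correction, an offset of 50, other filters on dim probes, a trended and robust variance prior, array weights, a fit on the 6 arrays alone, the replicate block and leaving out each E13.5 or E11.5 array. The fit was checked on simulated data with independent noise of equal spread in every stage. Such data do not copy the uneven E13.5 arrays or the background limit. Folds and bounds were computed from the log2 levels.

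Replicate numbers are shared between stages. Deviations from the stage means of same-numbered E13.5 and E11.5 arrays correlated by 0.15, 0.269 and 0.103. Those of differently numbered arrays correlated by between -0.231 and 0.054. Deviations within a stage cancel out, so these values depend on one another and cannot settle whether the numbers pair the arrays. The labels do not say either. The main fit did not use the numbers, and a fit with the number as a block was run as an alternative.

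Symbols came from the platform annotation, which gives 34885 probes 1 symbol, 18 several and 10378 none, and RefSeq (GRCm38.p6) holds the Entrez identifiers of 34807 probes. Of 834 called genes with several tested probes, 243 have a probe of opposite sign and 6 one called in the opposite direction. The genes named are the 15 largest rises and 15 largest falls that passed without overlap, up to 4 risers and 4 fallers of each list (the 2 largest changes where fewer than 2 passed), the 5 largest and 5 smallest differences against the last 2 days, the 4 largest and 4 smallest differences between the days, and some markers. The members, lists and tests were chosen with earlier results of these data known, so lists carry counts and medians and no test.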

Additional observations from a re-analysis of the deposited data

Results flagged for a closer look

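The values here were picked because the change in one period differed, by its own limma test, from that in another. The second day's step minus the first day's differed for 22 probes in the positive and 16 in the negative direction. By size these were led by Pf4 (2.98), Ppbp (2.67), Dlk1 (2.24) and Treml1 (1.87) on the positive side and by Hspa1a (-5.96), Hspa1b (-2.52), ND5 (-2.48) and Txnip (-2.36) on the negative side, all on the log2 scale. The change over the first 2 days minus that over the last 2 differed for 633 probes in the positive and 500 in the negative direction. The leading genes were Hbb-y (7.2), Hbb-bt (5.12), Hbb-bs (4.92), Hba-a1 (4.66) and Chn2 (3.37) against Pf4 (-4.24), Eif2s3y (-3.51), Ppbp (-2.77), Alox12 (-2.52) and Myl1 (-2.51). Beside the globin values, red cell genes other than globins did not rise by the test between E13.5 and E11.5, and the part of blood cells was not tested. Beside the value of Eif2s3y stand the E14.5 arrays, on which this Y-linked gene was not above background.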

How the results depend on the processing

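Over up to 15 alternatives each, 128 of 200 called genes picked by the naming rule kept their call, 72 lost it in at least 1, and none changed direction. Of 15 named genes that were not called 7 passed in at least 1. Leaving out single arrays moved the counts of probes to between 831 and 1822 higher and between 766 and 1821 lower, and the highest counts came without E13.5 replicate 1. The counts were over 1.5 times smaller without E13.5 replicate 2 (863 and 766), E13.5 replicate 3 (831 and 793), E11.5 replicate 1 (894 and 863) or E11.5 replicate 3 (841 and 792). The same alternatives gave between 18 and 40 positive and between 13 and 57 negative probes for the second day against the first, and between 471 and 1070 positive and between 311 and 943 negative for the first 2 days against the last 2, again highest without E13.5 replicate 1. Array weights gave 37 and 34, and 1081 and 1012. The counts under all other alternatives stayed within 1.5 times of those reported. With the replicate number as a block 1548 probes were higher and 1573 lower, and among the named genes Myl7 (adjusted p = 0.051) and Junb (0.0552) lost their call while Tbx18 (0.035) and Pecam1 (0.0449) gained one. The fit on only the 6 arrays of both stages cannot give the other 2 comparisons. The causes were not tested. Genes near the background limit of 5.02 have compressed changes, and with 3 arrays a stage a call that misses the threshold does not show that levels were equal.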
